A study of Mus musculus with 8 samples.

Results

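The 8 genes described here encode pore-forming alpha1 subunits of voltage-gated calcium channels. They are Cacna1a, Cacna1b, Cacna1c, Cacna1d, Cacna1e, Cacna1g, Cacna1h and Cacna1i. The genes were taken by symbol from a table of 24155 genes, all 8 were listed, and all 8 were among the 18102 genes with enough counts to be tested. Members of the same family that were not part of the set are Cacna1f, not listed in the table, and Cacna1s, with at most 8 counts in any library.

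The libraries came from oligodendrocyte progenitors isolated by immunopanning from pups at postnatal day 7. In both groups the cells were Ehmt1fl/fl;Ehmt2fl/fl, with each of these genes flanked by loxP sites, and their medium held 10 ng/mL of PDGF-AA with 20 ng/mL of bFGF. The 4 control cultures received the adenovirus Ad-RFP, which carries a red fluorescent protein. The 4 cKO cultures received Ad-RFP-iCre, which carries Cre recombinase as well, so loss of both methyltransferases was induced in culture and not in the animal. Exposure to virus lasted 6 hours (multiplicity of infection 10), and RNA was taken 72 hours after it. Male and female pups were used, and the labels do not say whether cultures came from separate animals. Replicate numbers 1, 3, 4 and 6 name batches that each hold 1 control and 1 cKO culture, and p-values measure the spread of the difference between these batches, which may be partly technical.

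Voltage-gated calcium channels open when the membrane depolarizes and let calcium into the cell. The alpha1 subunit forms the pore, senses voltage and sets the channel's class. CaV1 (L-type) channels give long-lasting currents and signal to gene expression, CaV2 channels (P/Q-, N- and R-type) are best known for triggering transmitter release at nerve terminals, and CaV3 (T-type) channels open near resting potential. The CaV1 and CaV2 pores assemble with beta and alpha2delta subunits. Oligodendrocyte progenitors have voltage-gated calcium currents, and the L-type channel CaV1.2 has been studied in their migration and maturation. Ehmt1 and Ehmt2 encode enzymes that methylate lysine 9 of histone H3, a mark associated with silent genes.

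Depth and the check of the labels came first. Libraries held 43542700 to 65374432 counts, and the 8 pore genes took 0.0146% to 0.0180% of them. Ehmt1 ran from 88.8 to 100 CPM (the read count scaled to library size) in control and from 36.1 to 45.7 CPM in cKO libraries. Ehmt2 ran from 154 to 196 CPM in control and from 51.7 to 64.5 CPM in cKO libraries. Both targeted genes were therefore lower in every cKO library, although counts cover whole genes and not the floxed exons alone. Libraries of batches 1 and 3 stood apart from those of batches 4 and 6. The chi-square per degree of freedom between 2 libraries of a group was 54.4 to 69.5 within these sets of batches and 165 to 252 across them. Progenitor markers were abundant, with a summed level of 8475 to 13023 CPM in control over 8 genes. Of these 2 fell in cKO by the test described below, Pdgfra (-0.31 ± 0.03, log2) and Ptprz1 (-0.11 ± 0.03), and without batch 1 or 4 the number was 1. With all batches, 10.4% of all genes tested fell. In bulk RNA, a change in the number of cells of a type and a change of RNA per cell cannot be told apart.

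Promoter sequences are shown for Cacna1b and Cacna1c, the pore genes that passed the test described below, since CpG content is a property that the choice of genes did not use. The RefSeq table (GRCm38.p6) held 8 start sites for 5 of the genes, Cacna1b, Cacna1c, Cacna1d, Cacna1e and Cacna1i. The 250 bases before each start were read 5′ to 3′ on the gene's strand, with CpG dinucleotides in capitals. The Cacna1b stretch (chr2:24763153-24763402, minus strand) ends at the start of the gene as the deposited table gives it. The Cacna1c stretch (chr6:118757975-118758224, minus strand) lies before a start inside the deposited gene, which has 3 starts in RefSeq, and gene counts do not show which start was used.
Cacna1b: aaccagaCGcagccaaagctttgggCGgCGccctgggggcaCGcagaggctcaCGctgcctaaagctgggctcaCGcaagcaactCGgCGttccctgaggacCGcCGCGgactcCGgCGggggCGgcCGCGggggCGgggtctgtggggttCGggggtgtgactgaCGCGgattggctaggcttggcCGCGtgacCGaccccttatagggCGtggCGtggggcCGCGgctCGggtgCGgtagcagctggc
Cacna1c: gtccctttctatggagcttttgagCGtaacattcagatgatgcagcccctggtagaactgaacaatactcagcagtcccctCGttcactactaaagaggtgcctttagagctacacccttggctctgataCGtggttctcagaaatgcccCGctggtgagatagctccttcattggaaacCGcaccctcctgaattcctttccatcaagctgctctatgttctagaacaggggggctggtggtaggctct
Cacna1b held 29 CpGs, more than 93.22% of the 32851 promoter stretches of this length, whose median was 6. The Cacna1c start shown held 5 CpGs, and its other starts, whose stretches overlap annotated exons and are not printed, held 48 and 2. Starts also differed within Cacna1d, at 50 and 2 CpGs, while Cacna1i held 16 and Cacna1e 6. The Cacna1d stretch with 2 CpGs and the Cacna1e stretch lie wholly within annotated exons of their own genes. The letters TTCAGCACC, part of the element bound by the repressor REST, were in none of the 8 stretches on either strand and in 0.301% of all stretches. The cyclic AMP response element TGACGTCA was also in none, against 1.55% of all. The TATA-box letters TATAAA were in 1, a Cacna1d stretch, against 12.4% of all. That Cacna1d stretch is the one with 2 CpGs, within annotated exons. These searches describe letters in short windows and nothing about binding.

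Before asking what changed, the levels of the 8 genes were ordered within control libraries. CPM was divided by the longest coding length in GENCODE M21, since longer transcripts collect more reads, and all levels in this paragraph are CPM per kb. The deposited spans of Cacna1a and Cacna1c are longer than those in GENCODE M21, so their counts may rest on other gene models than the lengths. Cacna1c, the L-type CaV1.2 pore, was at 6.24 ± 1.48, Cacna1h, the T-type CaV3.2 pore, at 5.62 ± 0.28, and Cacna1a, the P/Q-type CaV2.1 pore, at 5.47 ± 0.45 (SD, n = 4). The ranges of these neighbours overlapped. Cacna1d (L-type CaV1.3) at 2.66 ± 0.46 lay below all control values of Cacna1a, and did not part from Cacna1b (N-type CaV2.2) at 2.49 ± 0.30. Cacna1g (T-type CaV3.1) followed at 1.39 ± 0.71, below every control value of Cacna1b. Cacna1e (R-type CaV2.3) was at 0.496 ± 0.21, overlapping Cacna1g, and Cacna1i (T-type CaV3.3) was lowest at 0.0404 ± 0.028. Control libraries thus held transcripts of all 3 classes, and bulk RNA does not show which cells they came from. CaV1 was at 36.1% ± 4.6, CaV2 at 34.9% ± 3.9 and CaV3 at 28.9% ± 2.4 of the summed level of the 8 genes (SD, n = 4). These shares also depend on the length, and per kb of all annotated exons they were 24.2% ± 3.5, 38.7% ± 3.8 and 37.1% ± 2.7.

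In cKO libraries the order of the upper genes changed without a gap between them. Cacna1a was at 5.72 ± 0.57, Cacna1h at 5.4 ± 0.61 and Cacna1c at 5.33 ± 0.87 CPM per kb, with overlapping ranges. Cacna1b, at 3.42 ± 0.44, was above Cacna1d, at 3.0 ± 0.39, in all 4 cKO libraries, whereas it was above Cacna1d in 1 of 4 control libraries. The order depends on the length used. Per kb of all annotated exons, Cacna1b was above Cacna1d in all 4 libraries of each group. On that scale, Cacna1h (4.07) and Cacna1a (3.40) were above Cacna1c (1.96), whose exons together span 21191 bases against 6666 bases of coding sequence.

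**Figure D1:**
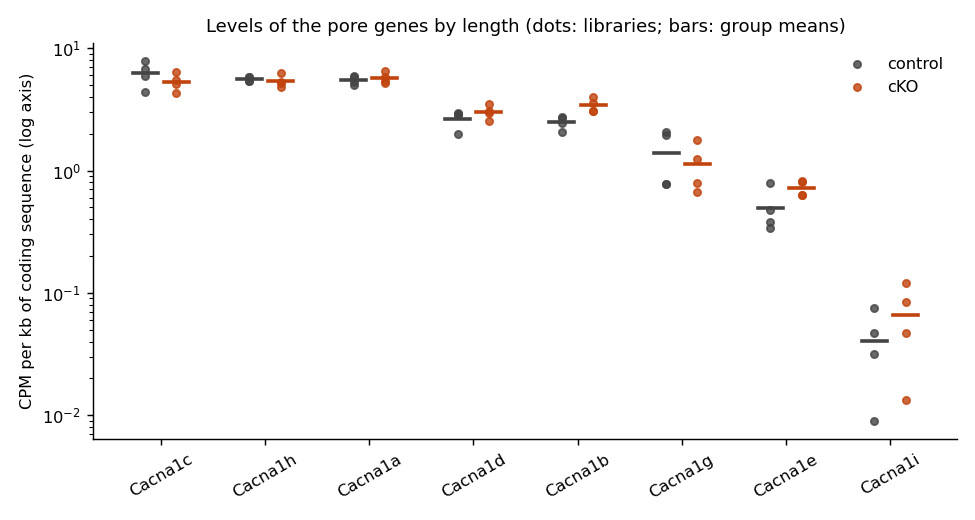
Levels of the 8 pore genes in CPM per kb of coding sequence on a log axis, with a dot for each library and a bar for each group mean (4 control and 4 cKO libraries). Cacna1c, Cacna1h and Cacna1a form an upper set at 5.33 to 6.24 in both groups, and Cacna1i is lowest.

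The main question was which pore genes differ between cKO and control cultures. Of the 8, Cacna1b rose and Cacna1c fell, and 6 did not pass. The test was edgeR's quasi-likelihood test with the replicate number as a block and a threshold of 0.05 on Benjamini-Hochberg adjusted p-values. Over all genes tested, 10.0% passed as higher and 10.4% as lower, so 1 of 8 in each direction is near the share among all genes. The median log2 fold change of the 8 was 0.12, against -0.01 over all genes. Log2 fold changes below are of cKO over control, ± SE, from that fit. With group alone in the model none of the 8 passed (0.0166% of all genes did), and 1 of them, Cacna1b, had an unadjusted p under 0.05.

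**Figure D2:**
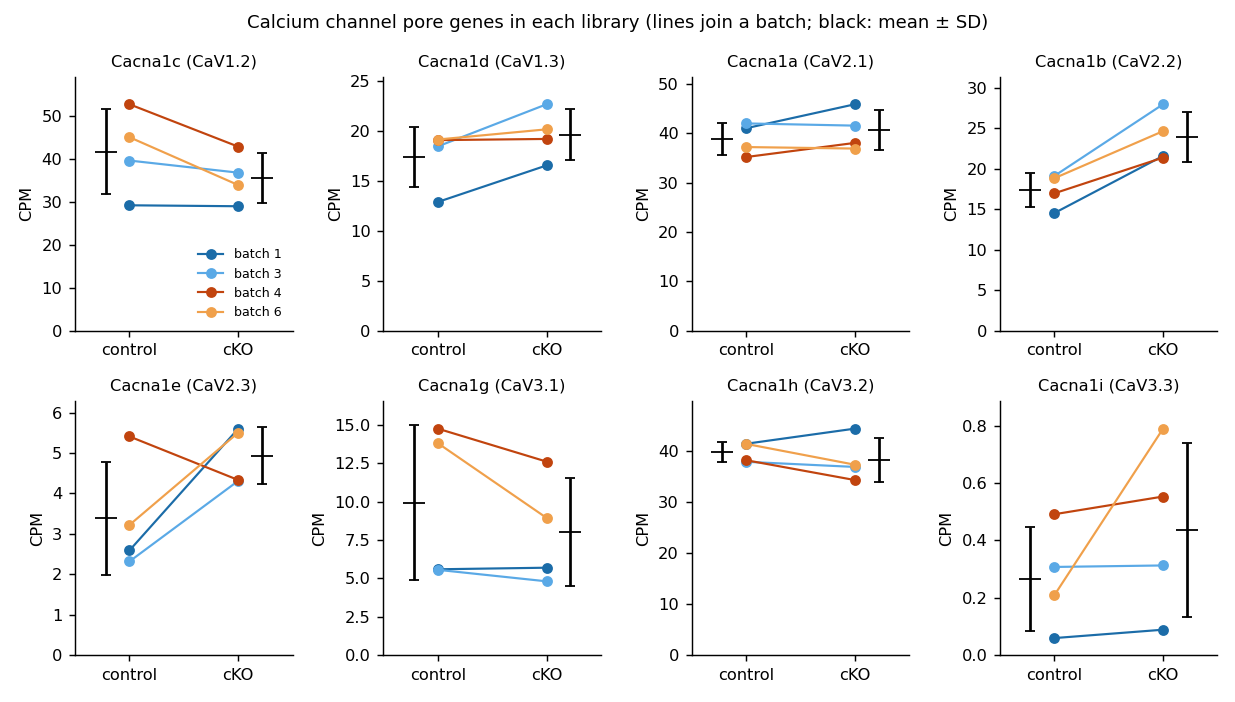
CPM of each pore gene in every library, with lines joining the control and cKO culture of a batch and black bars giving the group mean ± SD (n = 4). Cacna1b is the 1 gene of the 8 whose groups do not overlap, at 14.5 to 19.1 CPM in control and 21.4 to 28.0 CPM in cKO libraries.

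Among the CaV2 genes, Cacna1b (chromosome 2, 24603887 to 24763152, minus strand), the pore of N-type channels, was at 14.5, 19.1, 17.0 and 18.8 CPM in control batches 1, 3, 4 and 6. In cKO it was at 21.6, 28.0, 21.4 and 24.7 CPM in the same batches. Every cKO library was above every control library, a separation seen for 2.40% of all genes tested. The means were 17.4 ± 2.1 and 23.9 ± 3.1 CPM (SD, n = 4), and the fitted change was 0.46 ± 0.06, or 138% of control, with an edgeR adjusted p of 0.000398. The log2 difference within batches ran from 0.33 in batch 4 to 0.57 in batch 1. The call held in all 11 alternative fits that kept the block, with changes of 0.42 to 0.51. Without the block the change was 0.46 ± 0.13 and the adjusted p was 0.583 in edgeR. The targeted gene Ehmt1 lies close by on the same strand of chromosome 2, at 24789928 to 24919614. Whether this position bears on the change of Cacna1b was not tested. Within CaV2, Cacna1b made up 29.4% ± 2.9 of the level per kb in control and 34.7% ± 3.8 in cKO (SD, n = 4), and this share was higher in cKO in all 4 batches.

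Cacna1a (chromosome 8, 84338639 to 84640246, plus strand), the P/Q-type pore, showed no change that passed. It was at 41.0, 42.0, 35.2 and 37.2 CPM in control and at 45.9, 41.6, 38.1 and 36.9 CPM in cKO libraries, in the order of batches 1, 3, 4 and 6. The groups overlapped, and 2 batches were higher and 2 lower. The fitted change was 0.06 ± 0.04 (95% interval -0.03 to 0.16). The antisense gene Gm16183 shares 435 exon bases with it, at no more than 12 counts in a library against 1861 to 2605 for Cacna1a.

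Cacna1e (chromosome 1, 154390731 to 154884501, minus strand), the R-type pore, had a large change that was not even across batches. It was at 2.59, 2.32, 5.41 and 3.22 CPM in control and at 5.60, 4.31, 4.33 and 5.50 CPM in cKO libraries. Batches 1, 3 and 6 were higher in cKO, and batch 4, with the highest control value, was lower. The fitted change was 0.59 ± 0.24 (95% interval 0.02 to 1.16), with an edgeR adjusted p of 0.137. Without batch 4 the change was 0.94 ± 0.13 with an adjusted p of 0.00228 in edgeR, and DESeq2 with the block gave 0.61 with an adjusted p of 0.0404 on all 8 libraries.

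Among the CaV1 genes, Cacna1c (chromosome 6, 118587240 to 119196890, minus strand), the pore of CaV1.2 channels, was at 29.1, 39.5, 52.6 and 45.0 CPM in control batches 1, 3, 4 and 6. In cKO it was at 28.9, 36.7, 42.8 and 33.8 CPM. The groups overlapped, and cKO was lower in all 4 batches, as for 21.3% of all genes tested. The fitted change was -0.21 ± 0.06, or 86.4% of control, with an edgeR adjusted p of 0.0462. The difference was -0.01 in batch 1 and -0.11 in batch 3, against -0.30 in batch 4 and -0.41 in batch 6, where control levels were higher. The call was lost without batch 3, 4 or 6 (adjusted p of 0.0934, 0.202 and 0.104 in edgeR), and with upper-quartile scaling, no filter, a filter of 1 CPM or the ribosomal RNA gene left out (adjusted p of 0.0534 to 0.0587). Whether batches differ in this change was not tested.

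Cacna1d (chromosome 14, 30039939 to 30491455, minus strand), the pore of CaV1.3 channels, moved the other way without passing. It was at 12.9, 18.4, 19.1 and 19.1 CPM in control and at 16.5, 22.7, 19.2 and 20.2 CPM in cKO libraries. All 4 batches were higher in cKO, as for 19.5% of all genes, but the groups overlapped and the difference in batch 4 was 0.01. The fitted change was 0.18 ± 0.07 (95% interval 0.04 to 0.33), with an edgeR adjusted p of 0.0770. The share of Cacna1d within CaV1, per kb, was 30.1% ± 2.3 in control and 36.2% ± 3.3 in cKO (SD, n = 4), higher in cKO in all 4 batches. This share also rises where Cacna1c falls, and in batch 4 it went from 27.0% to 31.4%. The opposite-strand gene Chdh shares 589 exon bases with Cacna1d, at no more than 42 counts in a library.

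Among the CaV3 genes, Cacna1g (chromosome 11, 94408391 to 94474198, minus strand) differed more between batches than between groups. It was at 5.59, 5.55, 14.8 and 13.8 CPM in control and at 5.69, 4.80, 12.6 and 8.94 CPM in cKO libraries of batches 1, 3, 4 and 6. Batches 4 and 6 were above batches 1 and 3 in both groups. The fitted change was -0.28 ± 0.10 (95% interval -0.50 to -0.05), with an edgeR adjusted p of 0.0786. It passed without batch 1 (-0.37, adjusted p of 0.0445 in edgeR) and was -0.14 without batch 6, which had the lowest difference at -0.63.

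Cacna1h (chromosome 17, 25374285 to 25433783, minus strand), the main CaV3 transcript in these libraries, was even across them. It was at 41.4, 37.9, 38.2 and 41.4 CPM in control and at 44.4, 36.9, 34.3 and 37.3 CPM in cKO libraries. The groups overlapped, and the fitted change was -0.06 ± 0.05 (95% interval -0.17 to 0.05). Cacna1i (chromosome 15, 80287238 to 80398279, plus strand) rested on few reads, with 3, 17, 31 and 11 counts in control and 5, 14, 28 and 49 counts in cKO libraries. Its change of 0.69 ± 0.37 had an interval of -0.13 to 1.51, and without batch 6 it was 0.17. At this depth a change of Cacna1i could not be resolved.

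**Figure D3:**
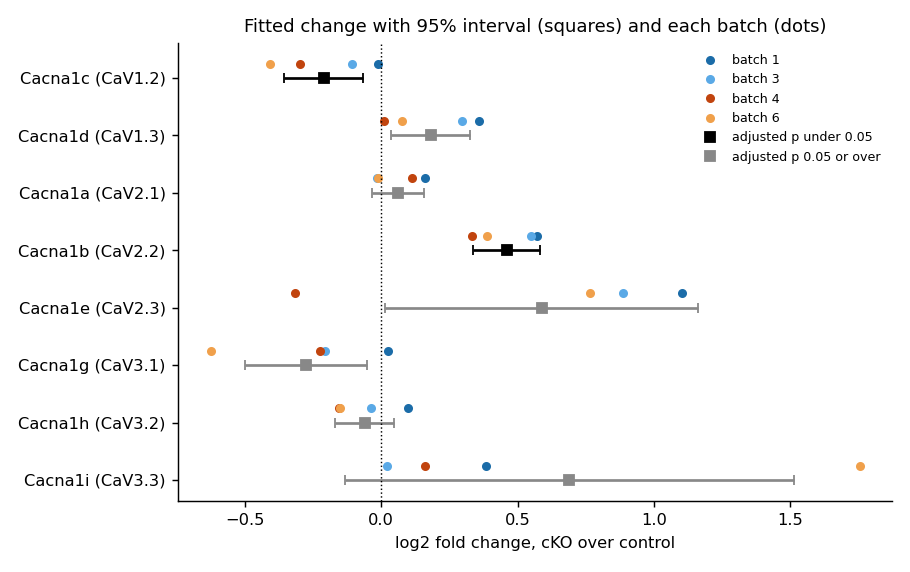
Log2 fold change of cKO over control for each pore gene, with squares and bars for the fitted value and its 95% interval, and dots for the difference within each batch. Cacna1b is above 0 in all 4 batches at 0.33 to 0.57, and Cacna1c is below 0 in all 4 at -0.41 to -0.01.

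Per kb, CaV2 made up 34.9% ± 3.9 of the 8 genes in control and 39.8% ± 2.9 in cKO, and was higher in cKO in all 4 batches. CaV1 made up 33.6% ± 3.9 in cKO and CaV3 26.6% ± 2.4, both lower than in control in all 4 batches (SD, n = 4). Groups overlapped for each class. Per kb of all annotated exons the levels of the shares differed, with CaV2 at 38.7% ± 3.8 in control and 43.5% ± 2.5 in cKO, and each class moved in the same direction in all 4 batches. Shares add to a whole, so the rise of one class lowers the others.

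**Figure D4:**
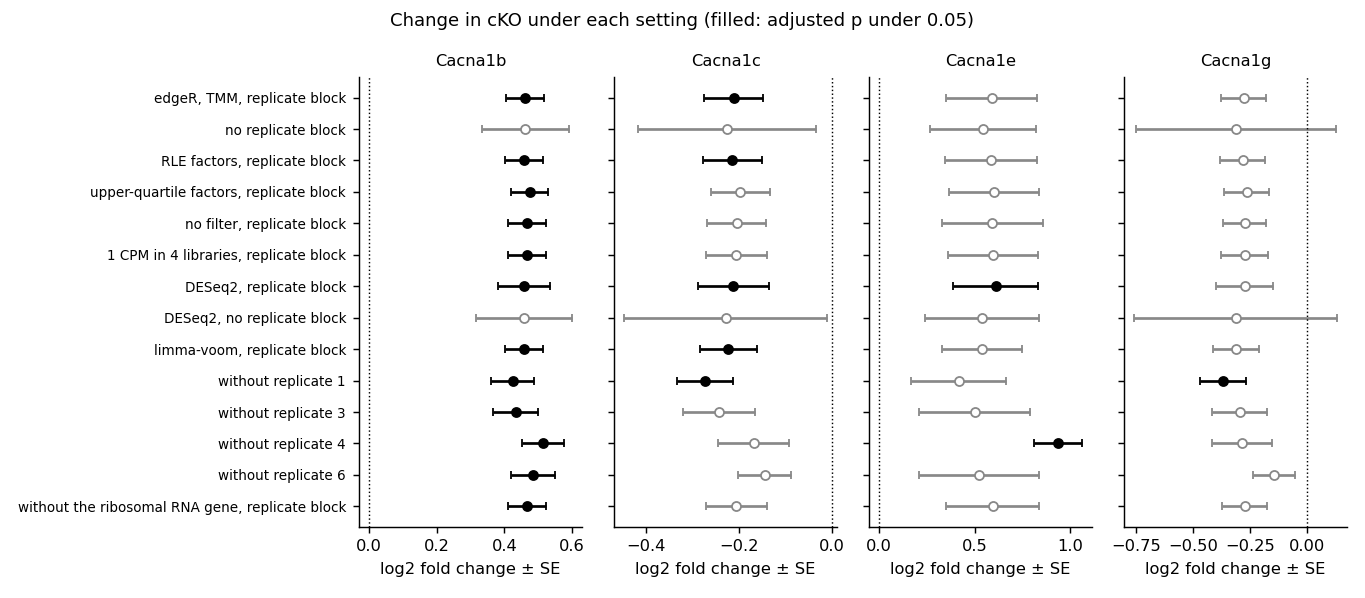
Log2 fold change ± SE of Cacna1b, Cacna1c, Cacna1e and Cacna1g in each fit, with filled points where the adjusted p was under 0.05. Cacna1b is filled in every fit with the replicate block, while Cacna1c is filled in 5 of 12 of them.

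The genes whose levels over the 8 libraries were most like each pore gene were found among 11965 protein-coding genes by Pearson's r of log2 CPM, given as a description of libraries that share batches. Cacna1b was most like Rps4x (0.97), Atp10b (0.97) and Rpl7 (0.96). Cacna1c was most like Preb, Tubb2b and Cacng7, each at 0.98, and the last of these encodes a member of the gamma subunit family. Cacna1g followed Shisa4 and Efhd2, both at 0.99, and Irs2 (0.99). For Cacna1d the nearest were Gal3st3, Syn1 and Rpl27a (0.98, 0.98 and 0.97). Cacna1a was nearest to the mitochondrial ribosome genes Mrpl10, Mrpl13 and Mrpl33 (0.97, 0.96 and 0.96). Cacna1e was nearest to Cebpzos, Ndfip2 and Fmn1 (0.97, 0.91 and 0.89), Cacna1h to Sel1l3, Dbi and Nadsyn1 (0.92, 0.91 and 0.90), and Cacna1i to Lrch2, Wnk3 and Mettl4 (0.99, 0.97 and 0.96).

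Genes that assemble with the pores, or act on them, were read from lists. Among all genes tested, 10.0% were called higher and 10.4% lower, and no list was tested against these shares. Of 7 tested auxiliary subunit genes, 2 rose, 1 fell and 4 did neither, with a median change of 0.00. The gamma subunit genes of this list had too few counts to be tested. Cacng7, which is not in the list, fell (-0.12, edgeR adjusted p of 0.0445). It was named only for its likeness to Cacna1c in these same libraries, so its fall is not a separate result. Cacnb4, a beta subunit that carries pores to the membrane, rose from 10.2 ± 1.6 to 14.3 ± 1.8 CPM (0.48 ± 0.07). Cacna2d2, an alpha2delta subunit, rose by 0.25 ± 0.07, and Cacnb1 fell (-0.25 ± 0.07). Cacnb3, the most abundant beta subunit by CPM at 38.4 ± 5.6 in control (SD, n = 4), was at -0.08 ± 0.04, and Cacna2d1 at 0.00 ± 0.06. Without batch 1 or 3, 1 gene of this list rose, and without batch 1, 4 or 6 none fell.

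Of 23 tested genes whose products bind and modulate or place calcium channels, 7 rose and 2 fell, with a median of 0.03. Rimbp2 (0.37 ± 0.06) and Rims4 (0.27 ± 0.05), of the presynaptic active zone protein families, rose. Cachd1, an alpha2delta-like protein gene, fell (-0.21 ± 0.04). The number that rose was 3 without batch 1 and 2 without batch 3, and the number that fell was 1 without any 1 batch. Nalcn, a related sodium leak channel pore, rose by 0.56 ± 0.10 and did not pass without batch 1, or on all libraries with no filter.

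Genes of other calcium routes were counted in the same way. Among all genes tested, 10.0% were higher and 10.4% lower, and no list was tested against these shares. Of 12 store-operated and release channel genes, 4 rose and none fell, with a median of 0.16. They were Orai2 (0.43 ± 0.05), a pore of store-operated entry, its store sensor Stim2 (0.17 ± 0.04), and the release channels Ryr3 (0.78 ± 0.15) and Itpr1 (0.21 ± 0.06), and 2 rose without batch 3. Of 17 calcium removal genes, 2 rose and 4 fell, with a median of -0.05. The 2 of 17 that rose are near the 10.0% of all genes, and the 4 that fell stand beside 10.4%. The plasma membrane pump gene Atp2b2 rose by 0.57 ± 0.07 and the exchanger gene Slc24a2 by 0.97 ± 0.19. The mitochondrial exchanger gene Slc8b1 fell (-1.08 ± 0.18), and 1 gene of the list fell without batch 4.

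Of 25 genes of calcium-dependent kinases, calcineurin, NFAT and CREB partners, 3 rose and 5 fell, with a median of -0.07. The 3 of 25 that rose are near the 10.0% of all genes, and the 5 that fell stand beside 10.4%. The kinase gene Camk1 rose by 0.25 ± 0.04. Camk2n1, encoding an inhibitor of CaMKII, fell (-0.25 ± 0.04), as did the CREB coactivator genes Crtc3 (-0.23 ± 0.05) and Crtc2 (-0.23 ± 0.05). Without batch 3 or 4, 1 gene of this list fell, and without batch 1 or 3, 1 rose. Creb1 (-0.00 ± 0.04) and the calcineurin gene Ppp3ca (0.01 ± 0.03) did not pass. None of the genes in these lists passed in edgeR without the block, where 893 of all genes had an unadjusted p under 0.05.

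**Figure D5:**
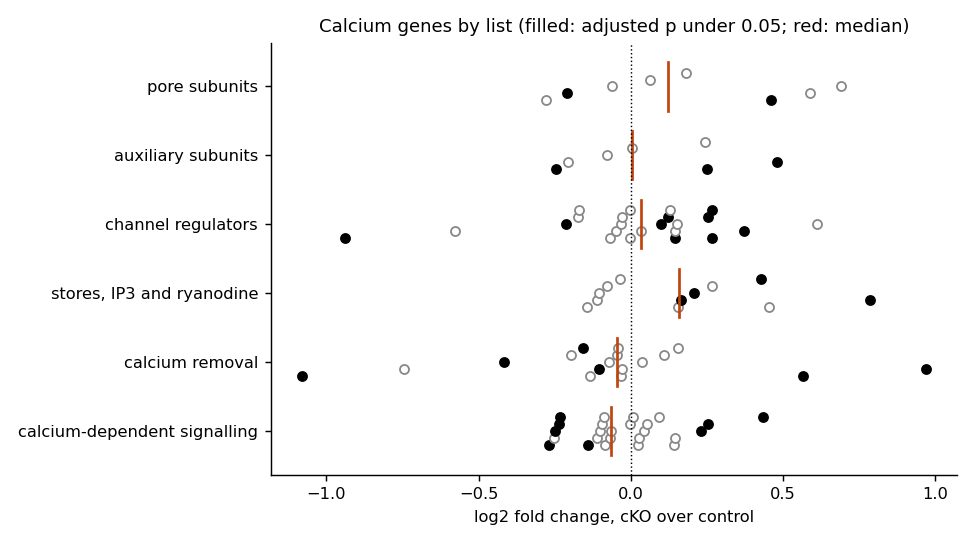
Log2 fold change of cKO over control for each tested gene of 6 calcium lists, with filled points where the adjusted p was under 0.05 and a red line at each list's median. Medians lie between -0.07 and 0.16, and each list except that of store and release channels holds filled points on both sides of 0.

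Sodium channel pores, the most similar family, gave other counts. Of 7 tested, 6 rose and none fell, with a median of 0.37, against 10.0% higher and 10.4% lower among all genes tested. Scn7a (3.41 ± 0.26), Scn2a (0.64 ± 0.06), Scn1a (0.33 ± 0.07) and Scn3a (0.28 ± 0.07) were those with the smallest p-values, and 3 genes rose without batch 1 or without batch 3. The difference between the families was not tested.

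Some markers of other cells differed between the groups as well. Beside the counts below stand the shares of all genes tested, 10.0% called higher and 10.4% lower, and no list was tested against them. Of 10 tested neuron markers, 5 rose and none fell, with a median change of 0.27 and a range of -0.40 to 2.70. Of the 10, 7 had a change above 0. Those that rose included Stmn2 (2.7 ± 0.37) and Snap25 (1.52 ± 0.09). The summed level of the list was 190 to 238 CPM in control and 214 to 283 CPM in cKO. Of the listed markers that define neurons by their transmitter, Gad1 was highest, at 1.09 ± 0.35 CPM in control and 1.75 ± 0.55 CPM in cKO (SD, n = 4), with a fitted change of 0.66 ± 0.25 that did not pass. Mean levels in control and cKO were 0.190 and 0.145 CPM for Slc17a7, 0.0706 and 0.151 CPM for Gad2, and 0.0430 and 0.0222 CPM for Slc32a1, and Slc17a6 was not listed. Of 9 differentiated oligodendrocyte markers, 6 rose, among them Aspa (1.97 ± 0.21), and the median change of the 9 was 0.96. Their sum was 249.7 to 1943 CPM in control and 310 to 2989 CPM in cKO. The number that rose was 4 without any 1 batch, and 2 under the filter of 1 CPM. Of 8 astrocyte markers, 2 rose and 3 fell, the latter including Sox9 (-0.31 ± 0.03). Of the 8, 5 had a change above 0, with a median of 0.05 and a range of -0.37 to 0.86. Their sums were 1220 to 2870 CPM in control and 1132 to 2671 CPM in cKO. Microglia markers summed to at most 1.53 CPM in any library, and the 1 tested, P2ry12, rose by 0.77 ± 0.24 but not without batch 1, 3 or 4. Endothelial markers summed to at most 10.9 CPM, and none of 3 tested passed. Mural and fibroblast markers summed to at most 4.98 CPM without Cspg4, which progenitors also express, and 2 of 7 tested rose, or 1 without any 1 batch. The median change of the 7 was -0.19, and the 2 that rose were the only ones above 0. Mitochondrially encoded genes took 2.42% to 3.24% of counts in control and 3.0% to 3.63% in cKO libraries, a share that was higher in cKO in all 4 batches. The most abundant ribosomal RNA gene took 7.91% to 10.1% of counts in control and 6.61% to 9.13% in cKO, lower in cKO in all 4 batches, and with it left out Cacna1c did not pass. The part of these differences in the changes of the pore genes was not tested.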

How the data were processed

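Polyadenylated RNA was sequenced from 4 control and 4 cKO cultures. RNA integrity numbers were 8 or higher, per the labels' protocols. The submitters' processing notes name Partek, cutadapt, STAR, DESeq2 and mm10; their versions, the annotation and the strand setting are not stated there. Values are estimated counts per gene from the authors, as deposited and without scaling, of which 51.6% have a fractional part, so genes sharing sequence can exchange counts. Library totals differed by less than a factor of 2.

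Expected counts were rounded. Genes were kept by filterByExpr (minimum count 10), which removed 6053, and scaled by TMM. Group was tested with edgeR 4.0.16 (glmQLFit, robust; glmQLFTest, 2-sided) in R 4.3.3, with the replicate number as a block and Benjamini-Hochberg adjustment over all genes. Batch names in the labels pair the libraries, and deviations from group means correlated at 0.75 to 0.79 between libraries of a batch. Log2 differences within batches used a prior count of 2. Levels used coding lengths from GENCODE M21 (GRCm38). Alternatives used DESeq2 1.42.0, limma 3.58.1, other scaling and filters, and each batch left out. The fit was also run on counts simulated from its own means and dispersions, which cannot show whether its model suits these data.

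All 8 pore genes, Ehmt1 and Ehmt2 were named. Each list gave at most 4 genes past the threshold with the smallest p, and each pore gene its 3 most similar genes; a few list genes that this rule names are not reported here. Cacnb3, Cacna2d1, Creb1, Ppp3ca and the neuron transmitter markers were named after their values were seen. Pore genes and the 15 lists were chosen with earlier results of these data known. Intervals are for the fitted change. Like the p-values, they rest on the spread of the difference between batches, which edgeR draws toward that of other genes. Values of single batches can lie outside the intervals.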

Additional observations from a re-analysis of the deposited data

Results flagged for a closer look

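Of 24 sets of 4 values examined (control CPM, cKO CPM and the batch differences of each pore gene), 1 held a value far from the other 3. Cacna1d was at 12.9 CPM in the control culture of batch 1, against 18.4 to 19.1 CPM in the other control libraries. About 1 set in 20 is expected to be marked by chance. Without batch 1 the Cacna1d change was 0.13, with an edgeR adjusted p of 0.274.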

How the results depend on the processing

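Over 103 combinations of a pore gene and an alternative, none reversed direction, 89 kept their side of the threshold, 11 lost a call and 3 gained one. Cacna1i was not tested under the filter of 1 CPM. Without the replicate block, edgeR called 3 genes (893 at an unadjusted p under 0.05) and DESeq2 191, and 0 of the 8 pore genes were called in either direction by each, although the labels pair the libraries. With the block, DESeq2 called 2 pore genes higher. Upper-quartile factors, no filter, the filter of 1 CPM and the ribosomal RNA gene left out each gave 0 pore genes lower. With each batch left out, the number of genes called ran from 2102 to 3432 against 3706, pore genes higher from 1 to 2, and pore genes lower from 0 to 2. These fits have fewer samples. Depth limits Cacna1i, at 3 to 49 counts per library. Class shares and the order of Cacna1b and Cacna1d per kb of all annotated exons, and list counts under each alternative, were added after seeing the data.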
